A study of Homo sapiens with 12 samples.

Results

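The response of 2 DLBCL (diffuse large B-cell lymphoma) cell lines to anti-CD20 antibodies was compared between the lines, across all genes. All 12 of the 12 RNA-seq libraries of the series entered the comparison, 6 from U2932 and 6 from TMD8. Both lines are established human B-cell lines labelled wild type. Rituximab (R), ofatumumab (OF) or a control antibody of the human IgG1 isotype was added to each line at 20 µg/mL for 4 h, and every one of the 6 conditions has 2 libraries. Before treatment, each line had been split into cultures kept apart for a week, so that the replicates are sister cultures of 1 stock of each line, and p-values measure the spread between such cultures. The response of a line is the mean of its 4 R and OF libraries minus the mean of its 2 isotype libraries on the log2 scale, and the difference between lines is the response in U2932 minus the response in TMD8. A gene was called when its change was at least 1.5-fold and edgeR's quasi-likelihood test gave a Benjamini-Hochberg adjusted p below 0.10.

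CD20, the product of MS4A1, is a surface protein of B cells that sits in the plasma membrane and is coupled to B-cell receptor and calcium signalling. R and OF both bind it, at different epitopes, and are used in the clinic to deplete B cells through complement, phagocytes and NK cells. In a culture of lymphoma cells alone, what is measured is the response of the cell itself to R or OF against the isotype antibody. R and OF were clinical products from a hospital pharmacy, and the isotype antibody came from another supplier. CD20 binding and other properties of the products therefore cannot be told apart here, and the part of each was not tested. Protein folding, sterol synthesis, histone transcription, interferon-stimulated genes and NF-kB are separate transcriptional programmes, each with its own regulators, and they are described in turn.

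Total counts per library lay between 15440226 and 27110612. All 10 B-cell markers were detected in both lines, with summed levels of 3393 to 5029 CPM (counts scaled to a common library size after TMM normalisation) in U2932 and 4267 to 5954 CPM in TMD8. Markers of T and NK cells summed to at most 15.2 CPM and those of monocytes to at most 8.07 CPM in any library. Of these markers, 2 of 12 and 4 of 10 were at 0 in all libraries. Markers of fibroblasts and epithelium summed to at most 38.7 CPM, most of it from EPCAM in U2932 and CDH1 in TMD8. In TMD8, replicate 2 of OF and of isotype differed from the rest and held 7.04% to 7.77% of their counts in ribosomal protein genes, against 10.9% to 11.8% in the other 4 libraries. In U2932 the same share was 4.89% to 5.23% with isotype and 6.70% to 7.29% with anti-CD20. The part of these shares in the results was not tested, and the main counts are also given without the 2 TMD8 libraries.

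MS4A1 itself rose in both lines. In U2932 it stood at 1426 and 1681 CPM with R, 1441 and 1446 with OF, against 856 and 959 with isotype. TMD8 libraries had 2348 and 2048 CPM with R, 1999 and 1492 with OF, against 1351 and 946 with isotype. The anti-CD20 libraries lay above the isotype libraries in both lines without overlap. The log2 responses were 0.72 ± 0.18 (SE, adjusted p = 0.030) in U2932 and 0.77 ± 0.18 (adjusted p = 0.021) in TMD8, and the difference between lines was -0.05 ± 0.24 (adjusted p = 1.0).

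Across 16187 genes tested, 527 were called higher (3.26%) and 549 lower (3.39%) in U2932, and 595 higher (3.68%) and 801 lower (4.95%) in TMD8. The share of these calls that were higher depended on the scaling. It was 49.0% in U2932 and 42.6% in TMD8 after TMM, and 28.4% and 25.8% when libraries were scaled by total counts alone. In all, 1076 genes were called in U2932, 309 without its isotype replicate 2 and 695 without its isotype replicate 1. In TMD8, 1396 genes were called, and 2291 without its isotype replicate 1. Without TMD8 OF and isotype replicate 2 together, 1692 and 2015 genes were called. Of the called genes, 323 were called in both lines in the same direction, 167 higher and 156 lower, which is 30.0% of the U2932 calls and 23.1% of the TMD8 calls. That count was 153 without U2932 isotype replicate 2 and 203 without isotype replicate 1. Which line had more calls depended on the fit. It was TMD8 in the main fit, which shares 1 estimate of the spread between the lines. With each line fitted alone, 1632 genes were called in U2932 and 572 in TMD8. Limma voom with weights per cell line called 1899 and 830. Across genes, the responses of the lines in the main fit had a Pearson r of 0.23 and a Spearman rho of 0.35, and 62.0% of genes had the same sign. The lines share no library, but genes are not independent replicates, so no p-value is given.

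The difference between lines was called for 165 genes, with 81 responding more positively in U2932 (0.500%) and 84 in TMD8 (0.519%). With the replicate number as a block, taken to mark the separately kept culture, 728 genes were called, including all 165. At an unadjusted p under 0.05 there were 2047 genes. All 165 differences had the same sign with R alone and with OF alone. Those contrasts reuse the libraries that gave the calls, so the shared sign is no separate support. Tested by itself, R gave 52 called differences and OF gave 17. The count of 165 depended strongly on single libraries. It fell to 9 without U2932 isotype replicate 2 and to 27 without U2932 isotype replicate 1, lay between 29 and 33 without any other U2932 library, and was 33 and 49 without TMD8 R replicate 1 or 2. Without TMD8 isotype replicate 1 it rose to 628, without TMD8 isotype replicate 2 to 484, and without TMD8 OF and isotype replicate 2 together to 1276, of which 164 were among the 165. The 9 genes called in every one of the 12 fits that left out 1 library were DENND3, KDM7A, UGDH, TRPM4, IFIH1, HSPA5, SLC7A11, PDZRN3 and VLDLR.

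Genes were sorted into classes. A response was taken as belonging to 1 line only when it was called in that line, not called in the other, and the difference itself was called with that sign. This gave 20 genes higher and 15 lower in U2932 only, and 41 higher and 40 lower in TMD8 only. Opposite directions were called for 9 genes, with 6 higher in U2932 and lower in TMD8 and 3 the reverse. A further 36 genes had a called difference but fell in none of these classes, and 4 of the 323 genes called in both lines, CA2, H2BC8, H2BC7 and ZBTB43, also had a called difference. The genes named for a class were picked only where anti-CD20 and isotype libraries did not overlap in the line or lines that define it. The lack of overlap given for them below was therefore fixed by that choice and is no separate support. A gene that missed the threshold in a line is not shown to have been unchanged there. JUN, H3C10 and PARD6G-AS1, for example, are in a U2932 class but moved the same way in TMD8. Their adjusted p there were 0.049, 0.039 and 0.035, with changes under 1.5-fold. Others moved the opposite way in the other line, also under 1.5-fold. TRPM4 and IFI35, in U2932 classes, had TMD8 responses of 0.47 and -0.49 (adjusted p = 0.022 and 0.059). KLHL24 and YES1, in a TMD8 class, had U2932 responses of -0.42 and -0.48 (adjusted p = 0.022 and 0.038).

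**Figure D1:**
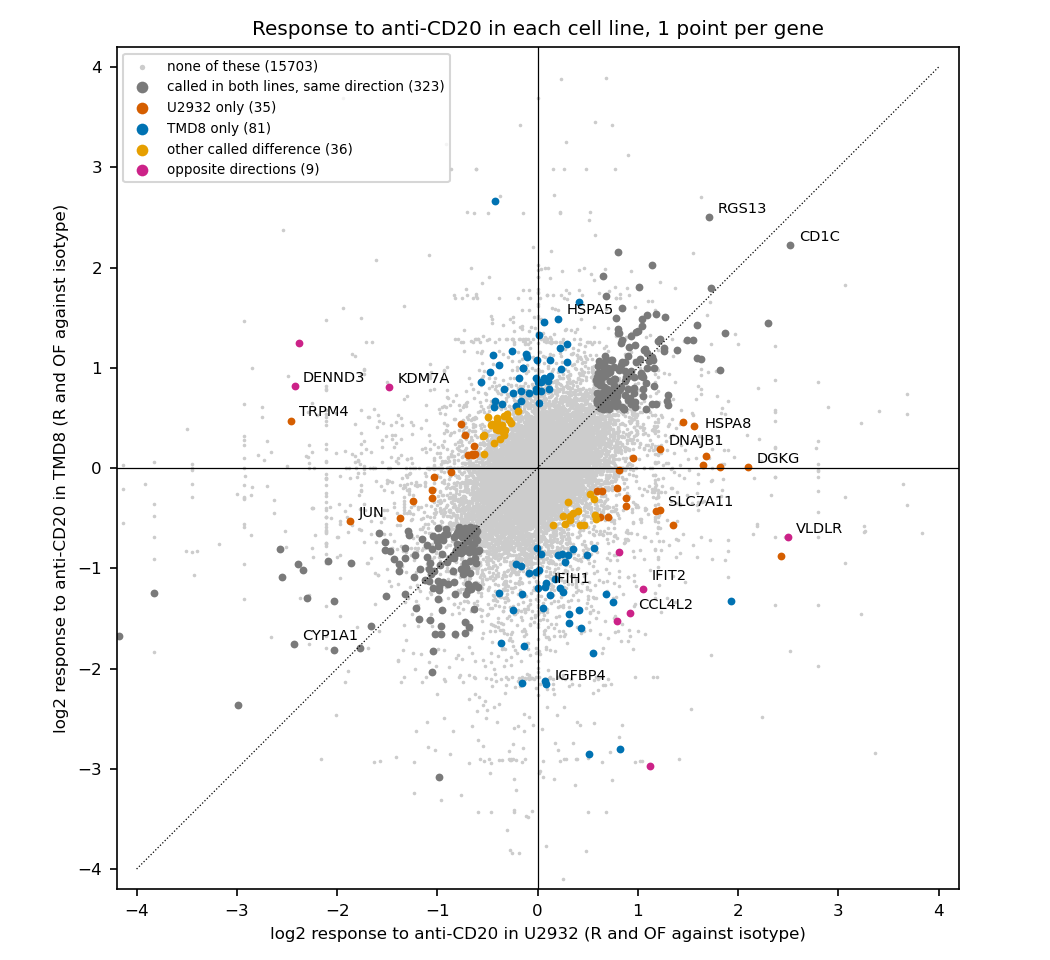
Log2 response to anti-CD20 in U2932 (horizontal axis) against TMD8 (vertical axis), 1 point per tested gene, coloured by class, with 15 genes outside the axes. Genes called in both lines lie along the dotted diagonal, while TMD8-only genes such as HSPA5 and IFIH1 lie near the vertical axis and KDM7A, DENND3, IFIT2 and VLDLR lie in the quadrants of opposite sign.

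Of the endoplasmic reticulum (ER) chaperones, 11 of 35 tested members, against 3.68% of all genes, were called higher in TMD8. These proteins fold secreted and membrane proteins in the ER, and their genes are induced by the unfolded protein response through ATF6, IRE1 and XBP1. In TMD8, 0 were called lower, 7 were called higher when that line was fitted alone, and the median log2 response was 0.34 against -0.03 over all genes. In U2932, where the median over all genes was -0.01, 1 was called higher and 1 lower, with a median of 0.04 that was -0.05 when libraries were scaled by total counts. The difference was called for 4 members, all higher in TMD8, and for 8 with the replicate block or without TMD8 isotype replicate 1. Without the 2 TMD8 libraries that stood apart, 10 were called higher in TMD8.

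HSPA5 (BiP, at chr9:125234853-125241330 of GRCh38), the major chaperone of the ER lumen, was the leading member. Its TMD8 libraries had 783 and 768 CPM with R, 876 and 763 with OF, against 282 and 285 with isotype. U2932 libraries stood at 1082 and 1113 CPM with R, 1077 and 1047 with OF, against 906 and 970 with isotype. All 4 anti-CD20 libraries of TMD8 lay far above both isotype libraries, and in U2932 the gap was small. The log2 response was 1.49 ± 0.12 (adjusted p = 0.00016) in TMD8 and 0.20 ± 0.11 in U2932, a difference of -1.29 ± 0.15 (adjusted p = 0.0096). XBP1, the transcription factor spliced by IRE1, had a log2 response of 1.17 ± 0.18 in TMD8 and -0.25 ± 0.17 in U2932. Its libraries stood at 39.6 to 55.8 CPM with anti-CD20 and 17.9 and 26.4 with isotype in TMD8, and its level was 381 to 497 CPM in all U2932 libraries. DNAJC3 and DNAJB11, co-chaperones of HSPA5, rose by 0.87 ± 0.11 and 0.90 ± 0.14 in TMD8, against 0.11 ± 0.10 and -0.01 ± 0.13 in U2932. The difference of HSPA5 was called in all 12 fits that left out 1 library. Those of XBP1, DNAJC3 and DNAJB11 were called in 5, 4 and 4 of the 12. SDF2L1 was called in both lines, at 0.89 in TMD8 and 0.64 in U2932. The kinase EIF2AK3 (PERK) was the member called lower in U2932, at -0.67, and stood at -0.05 in TMD8.

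Of the heat shock and other cytosolic chaperones, 12 of 41 tested members, against 3.26% of all genes, were called higher in U2932. They refold proteins in the cytosol and are induced by heat shock factor 1. In U2932, 1 was called lower and the median log2 response was 0.37, and 4 were called higher and 1 lower in TMD8 with a median of 0.22. In TMD8, 8 were called higher without the 2 libraries that stood apart, 7 without either isotype replicate, and 2 in a fit of the TMD8 libraries alone. Called differences numbered 2, both higher in U2932, and with the replicate block 4 were higher in U2932 and 1 was higher in TMD8. Without TMD8 isotype replicate 1, 6 differences were called higher in U2932.

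DNAJB1 (Hsp40, at chr19:14514770-14529770), which delivers substrates to HSP70, stood in U2932 at 117 and 111 CPM with R, 130 and 127 with OF, against 54.1 and 49.4 with isotype. TMD8 libraries stood at 171 and 169 CPM with R, 225 and 195 with OF, against 155 and 177 with isotype. The libraries were apart in U2932 and overlapped in TMD8. Its log2 response was 1.22 ± 0.11 (adjusted p = 0.00031) in U2932 and 0.19 ± 0.11 (adjusted p = 0.33) in TMD8, with a difference of 1.04 ± 0.15 (adjusted p = 0.022). HSPA8, the constitutive cytosolic HSP70, rose by 1.56 ± 0.18 in U2932 and had a response of 0.42 ± 0.17 in TMD8. It stood at 2140 to 2460 CPM with anti-CD20 and at 754 and 788 with isotype in U2932, while in TMD8 the ranges overlapped at 2661 to 3988 CPM and 2177 and 3062 CPM. Its difference was called in 4 of the 12 fits that left out 1 library. HSPH1 and CHORDC1 were called higher in both lines, at 1.3 and 0.79 in U2932 and 0.62 and 0.72 in TMD8. HSP90AA1 and HSP90AB1 were called higher in U2932, at 1.07 and 1.00, and stood at 0.57 and 0.53 in TMD8, under 1.5-fold. DNAJB2 was called lower in both, at -0.62 and -1.17.

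The promoters of DNAJB1, HSPA8 and HSPA5 are shown because these genes had called differences and stand in lists with known promoter motifs. Windows of 250 bases before annotated starts were taken from RefSeq on GRCh38.p14 for 11056 of the 16187 tested genes, 15933 windows in all, and motifs were searched on both strands. The heat shock element GAANNTTC was in 25.0% of 56 windows of the heat shock list and 4.22% of all windows, and its other phase TTCNNGAA, which can overlap it, in 17.9% and 5.45%. The CCAAT box was in 78.0% of 41 windows of the ER list, 26.8% of those of the heat shock list and 33.1% of all. It was as frequent in the cholesterol list, at 79.2% of 24 windows, and was in 41.9% of 43 windows of the ATF4 list. The window of DNAJB1 with most matches is chr19:14518398-14518647 and that of HSPA8 is chr11:123062137-123062386, with matches of the heat shock element in capitals. That of HSPA5 is chr9:125241344-125241593, with CCAAT or its reverse complement in capitals. All 3 are on the minus strand and are printed 5′ to 3′ with the start of transcription just after the last base.
DNAJB1: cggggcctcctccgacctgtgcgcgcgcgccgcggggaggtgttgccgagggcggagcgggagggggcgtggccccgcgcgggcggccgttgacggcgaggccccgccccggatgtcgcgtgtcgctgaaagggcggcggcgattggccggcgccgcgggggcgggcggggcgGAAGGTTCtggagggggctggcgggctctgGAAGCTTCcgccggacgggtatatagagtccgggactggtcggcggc
HSPA8: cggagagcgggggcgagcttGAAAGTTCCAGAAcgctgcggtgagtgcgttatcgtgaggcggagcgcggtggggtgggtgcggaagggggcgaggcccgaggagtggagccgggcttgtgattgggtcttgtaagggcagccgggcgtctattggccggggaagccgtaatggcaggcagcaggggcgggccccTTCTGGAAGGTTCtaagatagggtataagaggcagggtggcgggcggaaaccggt
HSPA5: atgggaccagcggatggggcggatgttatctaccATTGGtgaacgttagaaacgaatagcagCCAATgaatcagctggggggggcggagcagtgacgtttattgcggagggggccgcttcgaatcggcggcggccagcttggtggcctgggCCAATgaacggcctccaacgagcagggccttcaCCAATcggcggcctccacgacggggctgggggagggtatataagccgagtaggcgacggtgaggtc
The DNAJB1 window held 2 matches of the heat shock element in the phase GAANNTTC and the HSPA8 window held 4 in both phases, while the HSPA5 window held 4 CCAAT boxes. A match is a run of letters and does not show that a factor bound there.

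**Figure D2:**
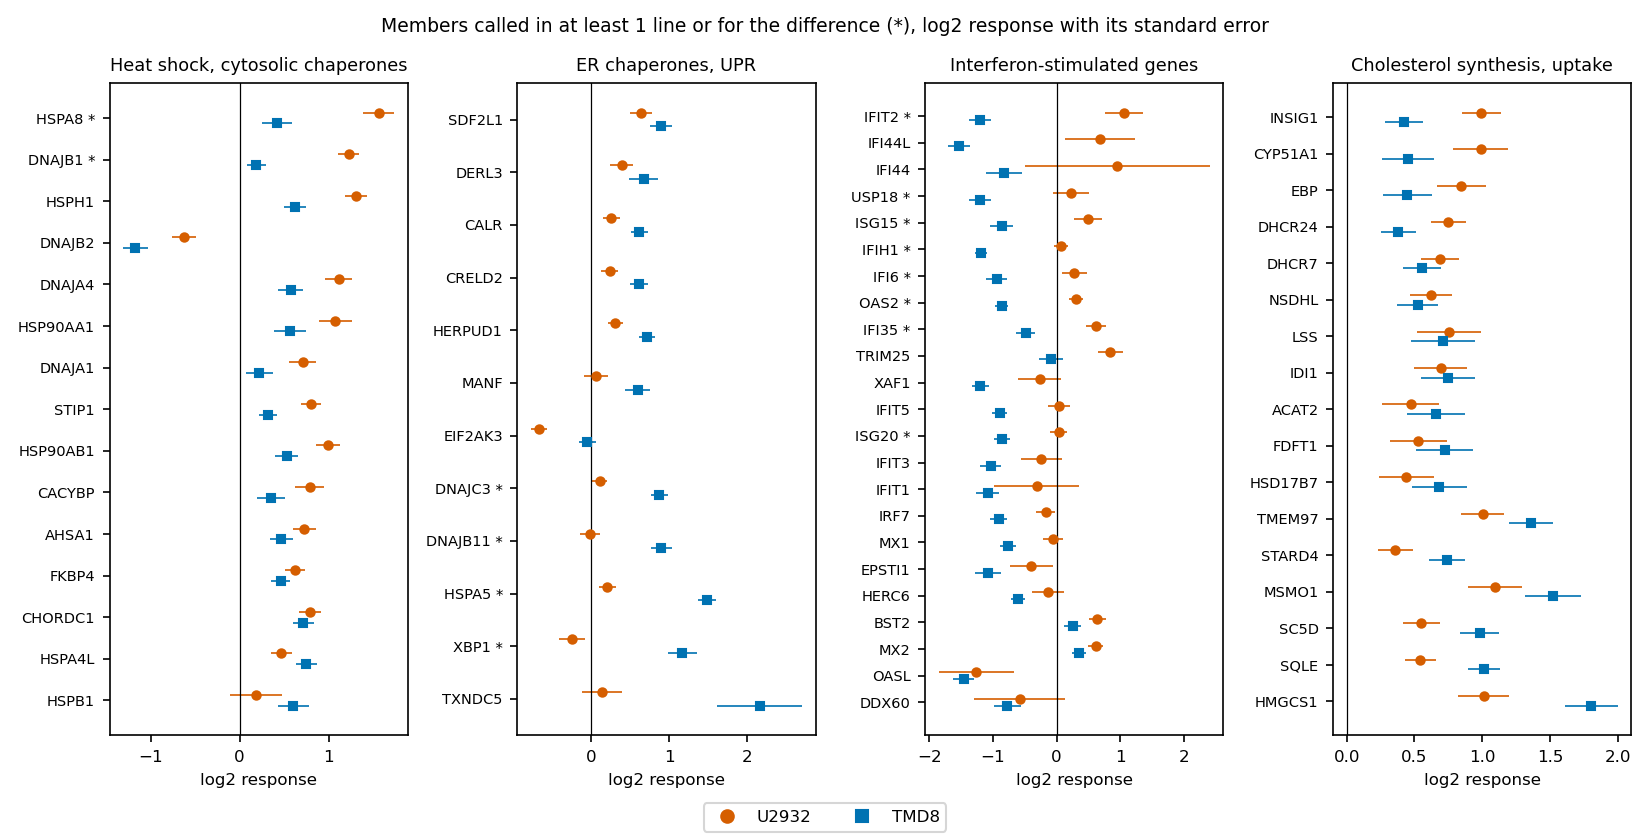
Log2 response with its standard error in U2932 (circles) and TMD8 (squares) of the members of 4 lists that were called in a line or for the difference, with some members not reported here left out and an asterisk where the difference was called. The circles lie to the right of the squares for most heat shock and interferon-stimulated genes, the squares lie to the right for most ER chaperones, and both lie right of 0 for the cholesterol genes shown.

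Genes of amino acid supply and the ATF4 stress response were called higher in U2932, and some of them in TMD8. ATF4 is the transcription factor of the integrated stress response and drives genes of serine, cysteine and glutathione metabolism. Of 31 tested members, 11 were called higher and 1 lower in U2932 with a median of 0.48, and 5 higher and 3 lower in TMD8 with a median of 0.20. In TMD8, 8 were called higher without the 2 libraries that stood apart. The difference was called for 4 members, all higher in U2932, for 6 with the replicate block, and for 7 without TMD8 isotype replicate 2. CHAC1, DDIT4, SLC38A2 and MTHFD2 were called higher in both lines, with log2 responses of 2.3, 1.63, 0.79 and 0.72 in U2932 and 1.45, 1.09, 0.76 and 0.78 in TMD8.

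SLC7A11 (chr4:138164097-138242349), the cystine and glutamate exchanger, was the leading difference of this list. In U2932 it stood at 20.0 and 18.4 CPM with R, 18.4 and 17.8 with OF, against 6.94 and 9.07 with isotype. In TMD8 it stood at 17.4 and 18.8 CPM with R, 11.9 and 14.6 with OF, against 19.9 and 21.4 with isotype. It was higher with anti-CD20 in every U2932 library and lower in every TMD8 library. The log2 response was 1.22 ± 0.15 (adjusted p = 0.0012) in U2932 and -0.42 ± 0.13 in TMD8, where the change was under 1.5-fold. The difference was 1.64 ± 0.20 (adjusted p = 0.0098). PSPH, the last enzyme of serine synthesis, had log2 responses of 0.52 ± 0.11 in U2932 and -0.26 ± 0.10 in TMD8, neither of them 1.5-fold, and a called difference of 0.79 ± 0.15. ATF5, a relative of ATF4, was called lower in TMD8 at -0.80 ± 0.11, while its U2932 libraries overlapped at 289.9 to 308 CPM. Its difference was not called after a correction for GC content. The differences of PSPH and ATF5 were each called in 4 of the 12 fits that left out 1 library. VLDLR, a lipoprotein receptor and a known ATF4 target, is described with the opposite responses.

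Of the interferon-stimulated genes, 19 of 47 tested members, against 4.95% of all genes, were called lower in TMD8. They are induced by interferon signalling and encode sensors and inhibitors of viral RNA. In TMD8, 0 were called higher, with a median log2 response of -0.51, and 5 were called higher and 0 lower in U2932, with a median of 0.03 that was -0.05 when libraries were scaled by total counts. The difference was called for 8 members, all higher in U2932. With the replicate block it was called for 19 higher in U2932 and 1 higher in TMD8. Without the 2 TMD8 libraries that stood apart, 20 members were called lower in TMD8 and 22 differences were called. Fits that left out 1 library gave 17 to 20 members lower in TMD8. The 5 members higher in U2932 became 0 without either U2932 isotype replicate and 3 without U2932 R replicate 1 or either OF replicate. The 8 differences became 1 without U2932 isotype replicate 2, 2 without isotype replicate 1, 3 without any other U2932 library or either TMD8 R replicate, and 15 and 14 without TMD8 isotype replicate 1 or 2.

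IFIH1 (MDA5, at chr2:162267079-162318703), a sensor of double-stranded RNA, was the member with the smallest p of the difference. TMD8 libraries had 54.6 and 52.0 CPM with R, 46.6 and 52.2 with OF, against 122 and 112 with isotype. U2932 libraries stood at 15.8 and 16.7 CPM with R, 14 and 14.5 with OF, against 14.1 and 14.9 with isotype. The anti-CD20 libraries of TMD8 all lay far below the isotype libraries, and in U2932 the ranges overlapped. The log2 response was -1.19 ± 0.10 (adjusted p = 0.00018) in TMD8 and 0.07 ± 0.11 in U2932, a difference of 1.26 ± 0.15 (adjusted p = 0.0092). OAS2, which makes the activator of RNase L, responded by -0.86 ± 0.10 in TMD8 and 0.30 ± 0.11 in U2932. USP18, ISG15, IFI6 and ISG20 had log2 responses of -1.2, -0.86, -0.94 and -0.86 in TMD8 and of 0.23, 0.49, 0.28 and 0.04 in U2932, and their differences were called. IFI35 was called higher in U2932 at 0.62 ± 0.16, and its difference was not called after the correction for GC content. BST2, MX2 and TRIM25 were the other members called higher in U2932 beside IFIT2, at 0.64, 0.61 and 0.85. OASL, IFIT1 and XAF1 were called lower in TMD8 at -1.46, -1.08 and -1.2, and stood at -1.26, -0.31 and -0.27 in U2932 without passing the test. SLFN5, an interferon-inducible gene of the Schlafen family, fell by 1.74 in TMD8 and had a response of -0.37 in U2932. The interferon-stimulated response element was in 52.9% of 51 promoter windows of this list, 12.5% of 48 windows of the genes called lower in TMD8 only, 11.8% of 17 windows of those called lower in U2932 only, and 2.67% of all. The window of IFIH1, chr2:162318685-162318934 on the minus strand, held 3 matches on either strand, in capitals.
IFIH1: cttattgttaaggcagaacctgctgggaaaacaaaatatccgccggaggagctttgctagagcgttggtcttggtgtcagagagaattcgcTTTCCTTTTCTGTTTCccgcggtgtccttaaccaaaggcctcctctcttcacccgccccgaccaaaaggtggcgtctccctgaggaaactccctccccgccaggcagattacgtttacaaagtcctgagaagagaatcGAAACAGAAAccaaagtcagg

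Interferon-stimulated genes were also among the opposite responses. IFIT2 (chr10:89283694-89309276), which binds viral RNA, stood in U2932 at 2.3 and 1.8 CPM with R, 2.22 and 2.19 with OF, against 1.12 and 0.92 with isotype. Its TMD8 libraries had 28.7 and 46.3 CPM with R, 25.1 and 28.6 with OF, against 82.0 and 64.2 with isotype. Its libraries did not overlap in either line and moved in opposite directions. The log2 response was 1.06 ± 0.29 (adjusted p = 0.048) in U2932 and -1.2 ± 0.17 (adjusted p = 0.0022) in TMD8, with a difference of 2.26 ± 0.34 (adjusted p = 0.022).

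KDM7A (chr7:140084746-140177035), a histone demethylase of H3K9 and H3K27, moved the other way. In U2932 it stood at 7.30 and 6.09 CPM with R, 5.49 and 7.43 with OF, against 16.3 and 20.5 with isotype. TMD8 libraries stood at 16.6 and 15 CPM with R, 9.68 and 11.8 with OF, against 7.14 and 7.74 with isotype. Anti-CD20 libraries lay below isotype in U2932 and above it in TMD8, without overlap. The log2 responses were -1.48 ± 0.16 (adjusted p = 0.00076) and 0.81 ± 0.17 (adjusted p = 0.016), a difference of -2.29 ± 0.24 (adjusted p = 0.0089) that was called in all 12 fits without 1 library. It was also called in both directions when each line was fitted alone. DENND3, an activator of the GTPase RAB12, had log2 responses of -2.42 ± 0.28 and 0.81 ± 0.18, at 0.393 to 1.28 CPM with anti-CD20 and 4.07 and 3.16 with isotype in U2932, where it had 7 to 22 and 91 and 72 reads, and at 103 to 147 CPM with anti-CD20 and 53.6 and 78.8 with isotype in TMD8. Its rise in TMD8 was not called when that line was fitted alone. The non-coding LINC01882 had at most 9 reads in any U2932 library, so its fall there rests on few reads.

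VLDLR, a lipoprotein receptor, was called higher in U2932 and lower in TMD8. It stood in U2932 at 1.46 and 1.85 CPM with R, 2.16 and 2.19 with OF, against 0.179 and 0.482 with isotype, the last from 4 and 11 reads. In TMD8 it stood at 3.32 and 3.60 CPM with R, 2.88 and 2.06 with OF, against 4.34 and 5.04 with isotype. The log2 responses were 2.49 ± 0.36 (adjusted p = 0.0027) and -0.69 ± 0.24 (adjusted p = 0.094), and the difference was 3.18 ± 0.43 (adjusted p = 0.014). Its fall in TMD8 was not called when that line was fitted alone.

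The chemokines CCL4, CCL4L2 and CCL3L3, which B cells release after receptor stimulation, belonged to the same class. CCL4 stood in U2932 at 18.4 and 22.7 CPM with R, 15.6 and 16.7 with OF, against 9.62 and 11.1 with isotype, and in TMD8 at 0.99 to 1.5 CPM with anti-CD20 and 2.74 and 1.74 with isotype. The log2 responses were 0.81 ± 0.19 in U2932 and -0.84 ± 0.25 in TMD8 for CCL4, 0.92 and -1.45 for CCL4L2, and 0.79 and -1.53 for CCL3L3. Their TMD8 values rest on 3 to 49 reads per library, and the falls of CCL4 and CCL4L2 were not called when TMD8 was fitted alone. CCL3 was called lower in TMD8 at -1.60, but not when that line was fitted alone, and had a response of 0.43 in U2932. CCL3L3 and CCL3, and CCL4L2 and CCL4, are near-identical copies, so the counting may have split reads between them.

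Among NF-kB genes, 10 were called lower in TMD8 and 1 in U2932. NF-kB is the transcription factor family of B-cell activation and is constitutively active in many activated B-cell-like lymphomas. Of 43 tested subunits, regulators and feedback genes, 10 were called lower and 4 higher in TMD8, with a median of -0.27. In U2932, 1 was called lower and 3 higher, with a median of 0.01. Over all genes, 4.95% were called lower and 3.68% higher in TMD8, and 3.39% and 3.26% in U2932. In a fit of the TMD8 libraries alone, 5 members were called lower. The difference was called for 4 members higher in U2932 and 1 higher in TMD8, and with the replicate block for 7 and 2. RELB, the subunit of the non-canonical pathway, stood in TMD8 at 48.8 and 50.3 CPM with R, 75.6 and 73.1 with OF, against 119 and 127 with isotype. U2932 libraries stood at 63.4 to 77.1 CPM with anti-CD20 and 76.4 and 64.9 with isotype. It fell in TMD8 by 1.02 ± 0.11 (adjusted p = 0.00049), and its response in U2932 was 0.01 ± 0.11. TRAF1, an adaptor of TNF receptors, responded by -0.98 ± 0.10 in TMD8 and -0.17 ± 0.10 in U2932. NFKB2 and REL were called lower in TMD8 at -0.78 and -0.67, without a called difference. TNF went the other way, with a response of 0.99 ± 0.14 in TMD8 and -0.14 ± 0.13 in U2932.

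Immediate early and feedback genes of MAP kinase signalling were called in both directions. Of 32 immediate early factors, 6 were called higher and 2 lower in TMD8, and 1 higher and 2 lower in U2932. The shares over all genes were 3.68% higher and 4.95% lower in TMD8, and 3.26% and 3.39% in U2932. In TMD8, 11 factors were called higher without isotype replicate 2. The difference was called for 3, all higher in TMD8, and with the replicate block for 5 higher in TMD8 and 1 in U2932. KLF6, a zinc finger factor, stood in TMD8 at 114 to 160 CPM with anti-CD20 and 66.8 and 71.6 with isotype, and in U2932 at 35.0 to 39.9 CPM and 42.1 and 42.0. Its difference was -1.15 ± 0.15 (adjusted p = 0.011). JUN, a subunit of AP-1, stood in U2932 at 3.14 to 5.08 CPM with anti-CD20 and 15.3 and 14.3 with isotype, and in TMD8 at 43.2 to 61.0 CPM and 77.5 and 78.3. It was below isotype in both lines, with log2 responses of -1.87 ± 0.17 in U2932 and -0.53 ± 0.15 in TMD8, and the fall was larger in U2932 (difference -1.34 ± 0.23, adjusted p = 0.043). Of 18 DUSP, SPRED and SPRY inhibitors, which switch off MAP kinases, 6 were called higher and 2 lower in TMD8 and 2 higher and 3 lower in U2932, the last being 5 when any 1 OF or isotype library of TMD8 was left out and 1 without U2932 isotype replicate 2. Without the 2 TMD8 libraries that stood apart, 0 were called lower in TMD8 and the difference was called for 8 in place of 1, all higher in TMD8. DUSP5 rose by 0.99 ± 0.12 in TMD8 and had a response of 0.23 ± 0.13 in U2932. Its difference was no longer called with upper-quartile or total count scaling.

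Genes of B-cell homing differed in both directions. Of 22 members of the trafficking list, 6 were called higher and 2 lower in TMD8, and 2 higher and 0 lower in U2932. Among all genes these shares were 3.68% and 4.95% in TMD8, and 3.26% and 3.39% in U2932. Without TMD8 R replicate 1, 3 members were called higher in TMD8. CXCR5, the receptor that draws B cells to follicles, stood in TMD8 at 27.1 and 28.6 CPM with R, 37.8 and 43.1 with OF, against 74.1 and 105 with isotype. Its log2 response was -1.42 ± 0.13 (adjusted p = 0.00030) in TMD8 and -0.24 ± 0.13 in U2932. CCR7, the receptor for the T-cell zone, responded by -0.81 ± 0.15 in TMD8 and 0.35 ± 0.16 in U2932. The integrin subunits ITGA4 and ITGB1, which pair as VLA-4, rose by 1.08 ± 0.13 and 0.85 ± 0.10 in TMD8 and had responses of 0.13 ± 0.13 and 0.00 ± 0.10 in U2932. IL16, a lymphocyte chemoattractant, rose by 1.2 ± 0.11 in TMD8. Except for IL16, called in 8, the differences of these genes were called in 4 of the 12 fits that left out 1 library.

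Other responses in 1 line fell outside these groups. UGDH (chr4:39498755-39528311), which makes UDP-glucuronate for glycosaminoglycans, stood in TMD8 at 34.1 and 31.1 CPM with R, 31.2 and 31.2 with OF, against 14.5 and 14.4 with isotype. In U2932 it stood at 47.5 to 52.5 CPM with anti-CD20 and 51.6 and 57.0 with isotype. The difference was -1.26 ± 0.14 (adjusted p = 0.0092). YES1, a kinase of the SRC family, rose by 0.96 ± 0.14 in TMD8 and had a response of -0.48 ± 0.13 in U2932. IGFBP4, a secreted binding protein of insulin-like growth factors, fell by 2.16 ± 0.19 in TMD8 and stood at 0.08 ± 0.20 in U2932. DGKG, a diacylglycerol kinase, rose by 2.10 ± 0.23 in U2932, from 3.04 and 2.41 CPM to between 9.68 and 13.2 CPM, and stood at 0.01 ± 0.22 in TMD8. In glycolysis, PFKFB4 rose by 1.68 ± 0.23 in U2932 and SLC2A3 (GLUT3) by 1.66 ± 0.20 in TMD8, each with a called difference that limma voom did not call. PDZRN3 and TRPM4 were called in the line where they had at most 25 and 17 reads in any library.

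**Figure D3:**
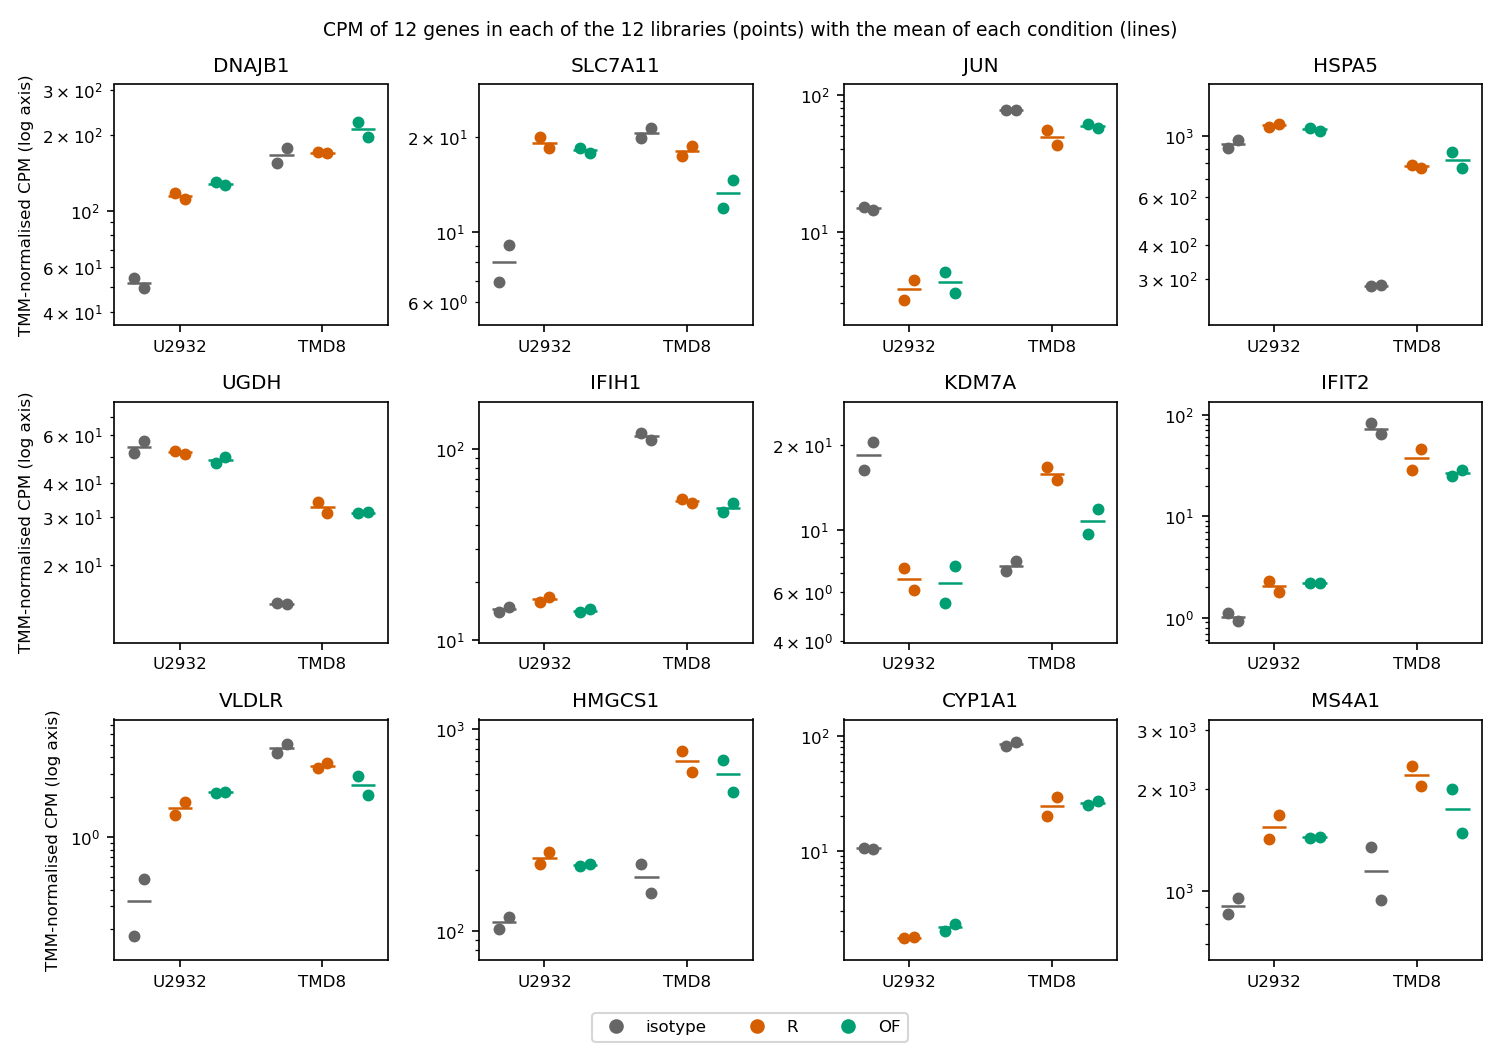
TMM-normalised CPM (log axis) of 12 genes in each of the 12 libraries, with points for the 2 replicates of isotype, R and OF in each line and a line at their mean. R and OF lie on the same side of isotype within a line for the genes called there, and KDM7A, IFIT2 and VLDLR change sides between the lines.

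Other functions responded in both lines. Of the cholesterol synthesis genes, targets of SREBP2, 13 of 25 tested members were called higher in U2932 and 12 in TMD8, 6 of them in both. The medians of the list were 0.62 and 0.56, and 3.26% and 3.68% of all genes were called higher. The U2932 count was 3 without U2932 isotype replicate 2 and 7 without isotype replicate 1, and the TMD8 count was 7 without TMD8 R replicate 1. HMGCS1, which makes HMG-CoA, stood in U2932 at 216 and 246 CPM with R, 211 and 215 with OF, against 102 and 118 with isotype. TMD8 libraries had 779 and 616 CPM with R, 708 and 490 with OF, against 215 and 155 with isotype. The log2 responses were 1.01 ± 0.19 and 1.80 ± 0.20, with a difference of -0.79 ± 0.25 (adjusted p = 0.22, and 0.0065 with the replicate block). In fatty acid synthesis, 5 of 18 members were called higher in TMD8 and 3 in U2932, with SCD and ELOVL5 in both. The TMD8 count was 8 without isotype replicate 2.

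Replication-dependent histones, which are transcribed in S phase and lack poly(A) tails, were called lower in both lines for part of the list. Of 44 tested members, 27 were called lower in U2932 and 16 in TMD8, 14 of them in both, and 0 were called higher. The medians of the list were -1.12 and -0.53, and 3.39% and 4.95% of all genes were called lower. In U2932, 15 members were called lower without U2932 isotype replicate 2, and the response was more negative in U2932 than in TMD8 for all but 5 of the 44 members. Differences were called for 3 members, H2BC8, H2BC7 and H3C10, all lower in U2932. The count was 9 with the replicate block, 9 without TMD8 isotype replicate 1 and 5 without TMD8 OF replicate 2. H2BC8 stood in U2932 at 2.98 and 2.97 CPM with R, 2.80 and 3.77 with OF, against 14.6 and 17 with isotype. Its TMD8 libraries had 27.3 and 31.2 CPM with R, 29.2 and 25.5 with OF, against 60.0 and 54.9 with isotype. It fell by 2.34 ± 0.14 in U2932 and by 1.02 ± 0.13 in TMD8, and the difference was -1.32 ± 0.20 (adjusted p = 0.022). Histone genes are near-identical copies, so the counting may have split reads among them.

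Some aryl hydrocarbon receptor genes were also called lower, 3 of 13 tested members in each line and 2 of them in both. The medians of the list were -0.03 in U2932 and -0.13 in TMD8, and 3.39% and 4.95% of all genes were called lower. CYP1A1 (chr15:74719542-74725610), the classical target, stood in U2932 at 1.74 and 1.75 CPM with R, 1.98 and 2.31 with OF, against 10.7 and 10.3 with isotype. TMD8 libraries stood at 20.0 and 29.3 CPM with R, 24.9 and 27.2 with OF, against 82.7 and 88.4 with isotype. It fell by 2.43 ± 0.17 and by 1.76 ± 0.14, with a difference of -0.68 ± 0.22 (adjusted p = 0.23, and 0.072 with the block). TIPARP, a feedback inhibitor of the receptor, responded by -1.38 ± 0.10 and -0.96 ± 0.10. AHR itself stood at -0.37 in U2932 and 0.02 in TMD8.

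Regulators of G-protein signalling were called higher in both, with 5 of 20 tested members in U2932 and 6 in TMD8. The shares over all genes were 3.26% and 3.68%. Of the members, 3 were called higher in both lines, and 1 other member was called lower in TMD8. The U2932 count was 2 without isotype replicate 2 and 3 without isotype replicate 1, R replicate 2 or OF replicate 1. RGS13, which dampens chemokine receptor signals in germinal centre B cells, stood in U2932 at 376 to 447 CPM with anti-CD20 and 116 and 131 with isotype, and in TMD8 at 115 to 182 CPM and 31.5 and 23.1. It rose by 1.71 ± 0.19 and by 2.50 ± 0.20, with a difference of -0.79 ± 0.25 (adjusted p = 0.21, and 0.0081 with the block). CD1C, which presents lipid antigens, rose by 2.52 ± 0.27 in U2932 and by 2.22 ± 0.20 in TMD8. Among the genes called in both lines with the smallest p-values were also SPR, CCNI and PRMT2, with log2 responses of 1.73, 1.18 and 1.15 in U2932 and 1.79, 1.53 and 1.07 in TMD8.

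Ribosomal protein genes showed how single libraries weigh on a list. Of 78 tested members, 10 were called higher in U2932 with a median of 0.51, and 1 in TMD8 with a median of 0.19. The shares over all genes were 3.26% and 3.68%. In U2932 the count was 0 without either isotype replicate and 24 without either TMD8 isotype replicate. In TMD8 it was 60 without isotype replicate 1, and the median was -0.03 without the 2 libraries that stood apart, when 36 differences were called, all higher in U2932. With all 12 libraries, 0 differences were called in the main fit and 4 with the replicate block.

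**Figure D4:**
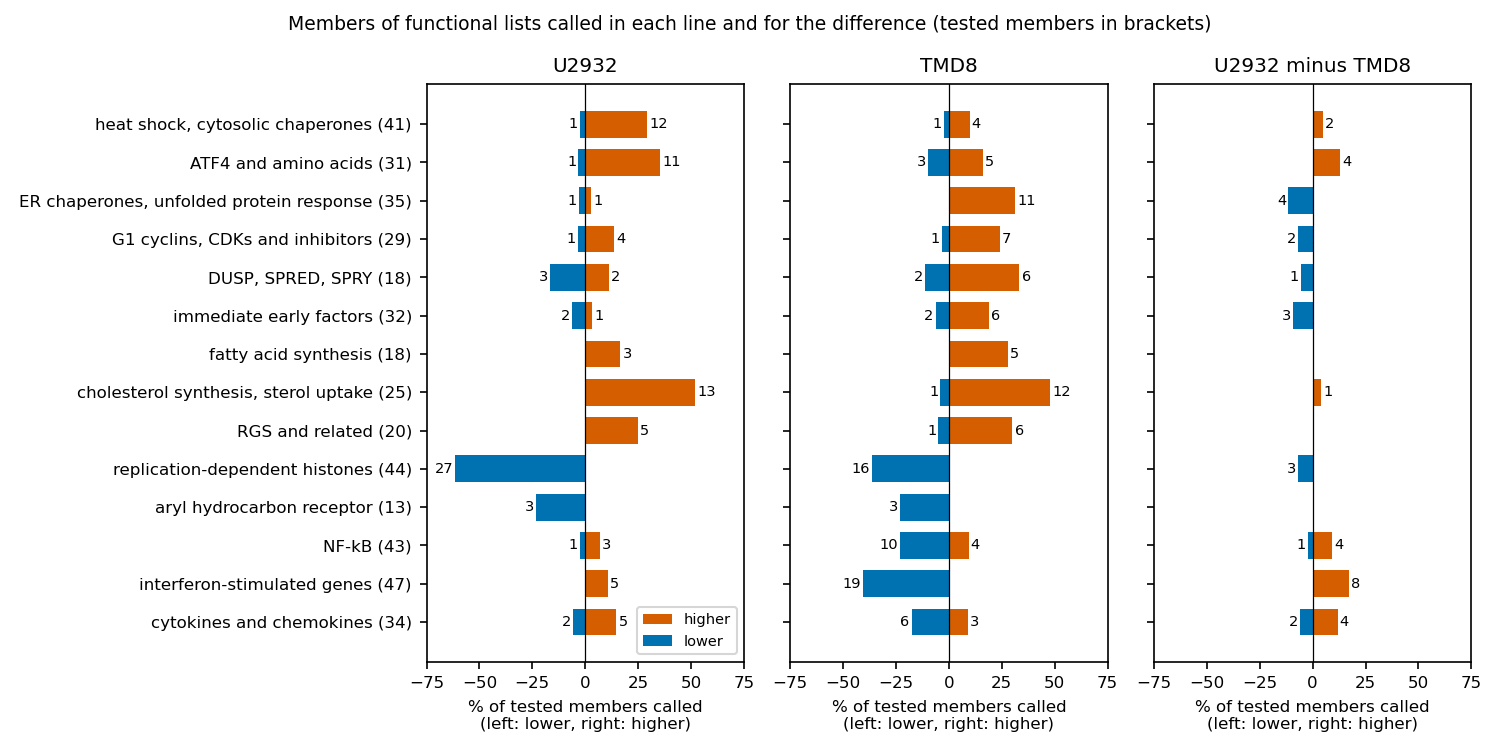
Percent of the tested members of 14 functional lists (tested members in brackets) called higher (right of 0) and lower (left of 0) in U2932, in TMD8 and for the difference, where right means higher in U2932, with the number of genes at each bar. In each line the called cholesterol genes were higher, except 1 in TMD8, and the called histones were lower, ER chaperones have a bar of 11 in TMD8 and of 1 each way in U2932, and interferon-stimulated genes have a bar of 19 lower in TMD8 and of 5 higher in U2932.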

How the data were processed

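RNA was sequenced from 12 libraries of 2 cell lines. The authors trimmed reads with Trim Galore 0.6.0, aligned them to GRCh38 (hg38) with STAR 2.7.0e and deposited raw counts per gene. The strand setting of the counting is not given in the sources used here. All 12 columns were mapped to samples, with 0 left over, and none of the rows lacked a gene. From these counts, filterByExpr kept 16187 of 58884 genes, and a model with 1 term per condition was fitted to all libraries with edgeR 4.0.16 (TMM, quasi-likelihood test, Benjamini-Hochberg adjustment) in R 4.3.3. The alternatives used DESeq2 1.42.0, limma 3.58.1, other scalings and filters, a replicate block, a GC content correction, single antibodies and left-out libraries. The sample titles give replicate numbers only, and for the block these were taken to mark the separately kept cultures. The deviations of same-numbered libraries correlated at -0.04 to 0.10 in U2932 and 0.18 to 0.58 in TMD8. The value of 0.58 was between OF and isotype, and both values with R in TMD8 were 0.18. In simulated counts with 200 genes changed 4-fold in the difference between lines, edgeR called 98% of them. Of its calls 7.55% were false, against 19.5% with DESeq2 and 15.3% with limma voom. The changed genes were drawn from those with many reads, the other genes had no response, and no library was made to stand apart. These rates therefore need not hold for changes near 1.5-fold or for genes with few reads.

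The members and gene lists were chosen with earlier results of these data known. The named genes were, in each class and direction, the 6 with a symbol and the smallest adjusted p whose libraries did not overlap the isotype libraries, up to 4 members of each described list with the smallest p of the difference, and MS4A1. Some genes are not reported here. Other list members named here were chosen after their values were seen. Depth limits genes with few reads, and intervals cover the spread between cultures only.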

Additional observations from a re-analysis of the deposited data

Results flagged for a closer look

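The response to anti-CD20 was called different between U2932 and TMD8 for 165 genes by the test of the difference itself (edgeR's quasi-likelihood test, adjusted p under 0.10 and at least 1.5-fold). The count depended strongly on single libraries, and was 52 with R alone and 17 with OF alone. The named genes among the 165 are given below by class, with the log2 difference of U2932 minus TMD8, and no explanation was weighed. A gene called in 1 line only missed the threshold in the other, which does not show that it was unchanged there.

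Called higher in U2932 only were SLC7A11 (1.64), DNAJB1 (1.04), DGKG (2.09), C12orf76 (1.18), PARD6G-AS1 (0.99), LSP1 (0.85), HSPA8 (1.14), IFI35 (1.11) and PFKFB4 (1.56). Called lower in U2932 only were TRPM4 (-2.94), JUN (-1.34), RNF144B (-0.83), ZEB2 (-0.86), RIMKLB (-1.05), CMTM3 (-1.20), H3C10 (-0.87), KDM5B (-0.95) and CHD1 (-0.83). Called higher in TMD8 only were UGDH (-1.26), HSPA5 (-1.29), YES1 (-1.43), KLF6 (-1.15), KLHL24 (-1.10), STK17B (-0.99), XBP1 (-1.42), DNAJC3 (-0.77), DNAJB11 (-0.91), CCNG2 (-0.83), TNF (-1.14), HIF1A (-0.83), SLC2A3 (-1.24), DUSP5 (-0.76), ID3 (-0.76), HHEX (-0.80), ITGB1 (-0.85), ITGA4 (-0.95) and IL16 (-0.98). Called lower in TMD8 only were IFIH1 (1.26), OAS2 (1.17), IGFBP4 (2.24), PDZRN3 (2.21), SLFN5 (1.37), RELB (1.03), ATF5 (0.79), TRAF1 (0.81), CCL3 (2.02), CXCR5 (1.17) and CCR7 (1.16). Opposite responses, higher in U2932, were those of VLDLR (3.18), IFIT2 (2.26), CCL3L3 (2.32), CCL4L2 (2.36) and CCL4 (1.65). The reverse was called for DENND3 (-3.24), KDM7A (-2.29) and LINC01882 (-3.63). The value of LINC01882 rests on few reads in U2932, and how far it depends on the prior count was not tested. Called lower in both lines with a called difference were H2BC8 (-1.32) and H2BC7 (-1.76). A called difference outside these classes was found for PSPH (0.79) and RB1 (-0.79).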

How the results depend on the processing

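The main counts were 1076 genes called in U2932, 1396 in TMD8, 165 for the difference, 323 in both lines in the same direction and 9 in opposite directions. The difference gave 418 genes with DESeq2, 450 with no filter, 276 after the GC content correction, 1276 without TMD8 OF and isotype replicate 2, 52 with R only, 17 with OF only and 59 at an adjusted p under 0.05. With the replicate block it gave 728 genes, and 608 with the block and the GC content correction, while opposite calls rose to 20 and 21. Opposite calls were 14 with total counts, 4 with at least 10 counts in every library, 16 with no filter, 15 after the GC content correction and 22 without the 2 TMD8 libraries. In U2932, 1692 genes were called without those 2 libraries. Limma voom called 1899 genes in U2932 and 830 in TMD8. Separate fits of the lines called 1632 and 572, with 193 shared and 3 opposite, and give no value for the difference. Without a fold limit, the anti-CD20 response in U2932 was called for 2179 genes and the anti-CD20 response in TMD8 for 2435, and there were 789 genes called in both lines in the same direction and 43 opposite.

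Leaving out 1 library gave 309 to 1395 genes in U2932, 1000 to 2291 in TMD8, 9 to 628 for the difference, 153 to 414 in both and 4 to 31 opposite. The cause was not tested. Of 2510 single-gene alternatives for 105 named genes, 1966 kept their side of the thresholds, 385 lost and 159 gained a call, and 0 changed sign of a called value. DESeq2 found 159 and limma voom 128 of the 165 differences.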

Other observations

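Sterol efflux genes, targets of the liver X receptors, were called in both directions in TMD8, with 3 of 9 tested members lower and 2 higher. Over all genes, 4.95% were called lower and 3.68% higher in TMD8. In U2932, 1 member was called higher and 0 lower, and that member was also called higher in TMD8. The members named next all had negative responses in TMD8, so they do not stand for the whole list. ABCG1, a cholesterol exporter, had a log2 response of -2.26 in TMD8 and 0.00 in U2932. APOE, which carries exported lipid, responded by -1.06 and 0.36. NR1H3, the receptor itself, responded by -1.40 and 0.05, and its difference was called.

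Nuclear genes of the respiratory chain had medians of 0.34 in U2932 and 0.02 in TMD8. Of 76 tested members, 3 were called higher in U2932, where 3.26% of all genes were called higher, and 0 in TMD8. The main fit called the difference for 0 members, and 67 had a difference above 0. The U2932 count was 0 without any 1 of the U2932 libraries, 5 without either TMD8 OF replicate and 6 without either TMD8 isotype replicate, and the TMD8 count was 14 without its isotype replicate 1. The difference was called for 1 member with the replicate block and for 29 without TMD8 OF and isotype replicate 2. Genes of DNA replication, mitosis and the proteasome, with 55, 56 and 46 tested members, had at most 3 calls in either direction in either line. The shares of all genes called lay between 3.26% and 4.95%.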
